A study of Mus musculus with 4 samples.

Results

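Replication-dependent histone genes were taken as the rows of the deposited gene count table whose symbol starts with Hist1h, Hist2h, Hist3h or Hist4h, the older names of the clustered histone genes. This gave 68 members of 23418 genes: 6 linker histone H1 genes, 18 H2A, 19 H2B, 12 H3 and 13 H4 genes. Of these, 62 had at least 1 read in some library, 57 had at least 1 read in all 4 libraries, and 36 reached 1 CPM, a count per 1000000 reads of the library, in all 4. The filter on low counts left 57 members for testing, among 13075 genes tested in all.

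The RNA came from mouse B cells of cervical lymph nodes, which drain the head and the salivary glands. There were 2 libraries of genotype NOD.B10 and 2 of genotype BL/10, labelled as the control. The NOD.B10 strain serves as a mouse model for Sjögren's disease, in which the immune system attacks the salivary and lacrimal glands. The labels give no age, sex or treatment. They also do not state whether each library is a different mouse or pool of mice, so the p-values reflect the spread of these 4 libraries, which may be technical.

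Replication-dependent histone genes supply the bulk of the core and linker histones that package new DNA, and their mRNA rises in S phase and is degraded when replication ends. H2A and H2B form a dimer, H3 and H4 form a tetramer, the core particle is built from both, and H1 binds the linker DNA between particles. Most of these mRNAs carry no poly(A) tail and end just after a stem-loop that is bound by the stem-loop binding protein Slbp. Some of the same genes also give polyadenylated transcripts, mainly in cells that have left the cycle, so the share of histone reads in a library also depends on how RNA was selected.

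The stem-loop is the sequence that sets these RNAs apart, so its forms are shown with the members that carry them. GENCODE transcripts were searched after the coding sequence for a consensus of the stem-loop, with 6 stem bases, a loop of 4 bases and 6 stem bases. It was found in 46 members, in 8 forms. The 5 forms carried by a member called between the strains follow as DNA letters, with the paired stem in capitals and the loop in lower case.
most frequent form: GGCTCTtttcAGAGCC
form of H4 genes: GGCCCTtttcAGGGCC
form with an altered loop: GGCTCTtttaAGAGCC
form of Hist1h4b and Hist1h4j: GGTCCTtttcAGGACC
form of Hist1h3g: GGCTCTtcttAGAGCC
The most frequent form was held by 26 members, none of them an H4 gene. The form of H4 genes was held by 7 members, and the form with the altered loop by 6. For the other 22 members no transcript matched, which says only that the annotated transcripts hold no such letters after the coding sequence. In some of these members the annotated transcript ends with the coding sequence, so no match was possible.

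Member reads made up 0.125% and 0.0556% of the NOD.B10 libraries 1 and 2, against 0.107% and 0.127% of the BL/10 libraries 1 and 2. The summed level was 1253 and 556 CPM in the NOD.B10 libraries, against 1067 and 1267 CPM in the BL/10 libraries. NOD.B10 library 2 was the low one of the 4, and the groups overlapped. Means were 904 ± 493 CPM in NOD.B10 and 1167 ± 142 CPM in BL/10 (SD, n = 2 each). The difference of −263 CPM was smaller than the SD of the NOD.B10 libraries. Without NOD.B10 library 1 it was −611 CPM, and without NOD.B10 library 2 it was 85.9 CPM, so its sign rested on library 2. With 2 libraries against 2, an exact two-sided permutation test cannot give a p below 0.333, and none was run.

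The linker histone genes held the largest share of member reads. Hist1h1c, Hist1h1e and Hist1h1d together held 50.4% and 47.6% of member reads in the NOD.B10 libraries, against 43.9% and 48.1% in the BL/10 libraries. H2A genes took 5.62% and 6.94% of member reads in the NOD.B10 libraries, against 8.84% and 8.19% in the BL/10 libraries. Of H2B genes the shares were 6.77% and 7.79% in the NOD.B10 libraries, against 11.5% and 11.4% in the BL/10 libraries. For both partners of the dimer, the summed shares of the NOD.B10 libraries lay below those of the BL/10 libraries with no overlap. Single genes carried much of this. Hist3h2a held 1.80% and 1.87% of member reads in the NOD.B10 libraries, against 4.20% and 3.52% in the BL/10 libraries. Hist1h2bg held 0.285% and 0.248%, against 3.28% and 3.57%. The sums alone therefore do not tell whether either class shifted as a whole. H4 genes took 23.8% and 24.4% of member reads in the NOD.B10 libraries, against 19.4% and 17.3% in the BL/10 libraries, again with no overlap but in the other direction. The shares of H1 and H3 overlapped between the strains. Shares of 1 total are not independent of each other, and they were not tested.

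**Figure D1:**
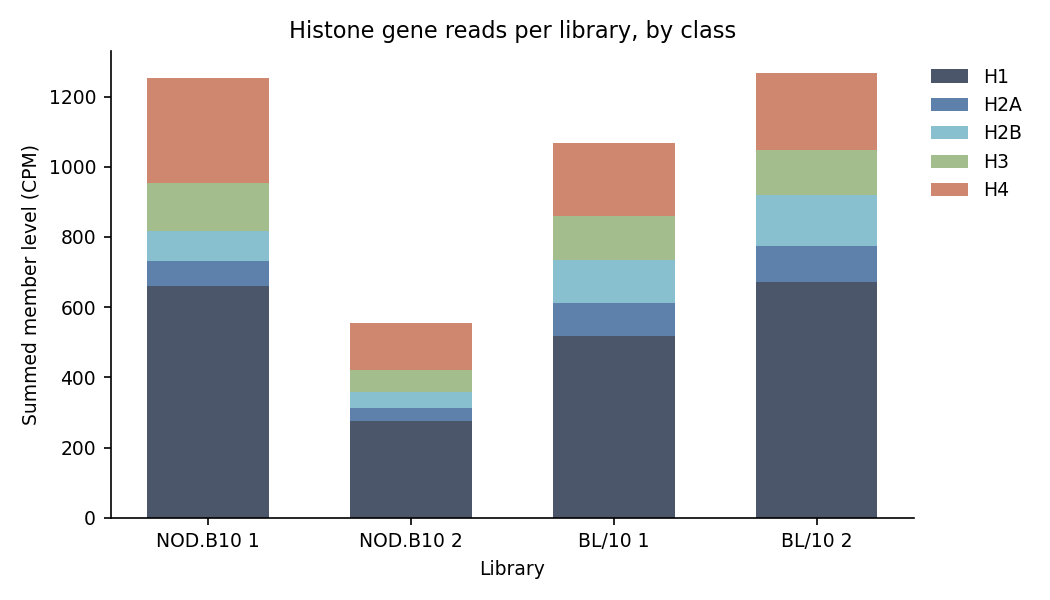
Summed level of the histone genes in CPM (vertical axis, from 0) in each of the 4 libraries (horizontal axis), with the bar divided by histone class from H1 at the foot to H4 at the top. The bar of NOD.B10 library 2 reached 556 CPM, while the other 3 lay between 1067 and 1267 CPM; H1 genes form the largest block of every bar.

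Among the 57 tested members, 16 were lower and 3 higher in NOD.B10 at an adjusted p under 0.05, and 38 were not called (edgeR quasi-likelihood test, Benjamini-Hochberg adjusted over all genes tested). The same test called 15.2% of all tested genes, 8.63% lower and 6.55% higher. Counts of calls from this fit, here and below, are to be read against these shares. The median log2 fold change, NOD.B10 over BL/10, was −0.86 over the members and −0.0032 over all tested genes, with 43 members negative and 14 positive. The CPM of both NOD.B10 libraries lay below both BL/10 libraries in 28 members and above both in 4, while 25 overlapped. Over all tested genes the shares with no overlap were 26.5% below and 28.5% above. In bulk RNA, fewer cells of a type and less RNA per cell cannot be told apart.

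Libraries decided many of these calls. A fit without 1 library leaves its strain with 1 library, which is assumed to vary like the other strain. Calls and adjusted p-values from such fits, here and below, therefore leave out the spread within that strain. Without NOD.B10 library 1 there were 36 members lower and 0 higher, with 9.01% of all tested genes lower and 4.30% higher. Without NOD.B10 library 2 there were 17 lower and 10 higher, with 8.13% and 7.01% of all tested genes. The same 17 members were lower in both of those fits. Without BL/10 library 1 there were 12 lower and 1 higher, with 7.49% of all tested genes lower and 5.55% higher. Without BL/10 library 2 there were 10 lower and 3 higher, with 8.93% and 7.35% of all tested genes. Of the 19 called members, 8 stayed called in each alternative that tested them, all of them lower: Hist1h4f, Hist1h2bg, Hist1h3f, Hist3h2ba, Hist1h2ad, Hist1h3b, Hist2h2be and Hist1h3d. The size of these changes still moved: leaving out NOD.B10 library 1 moved the fold of 12 called members by over 1.5 times, leaving out NOD.B10 library 2 did so for 7, and leaving out either BL/10 library for 0.

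**Figure D2:**
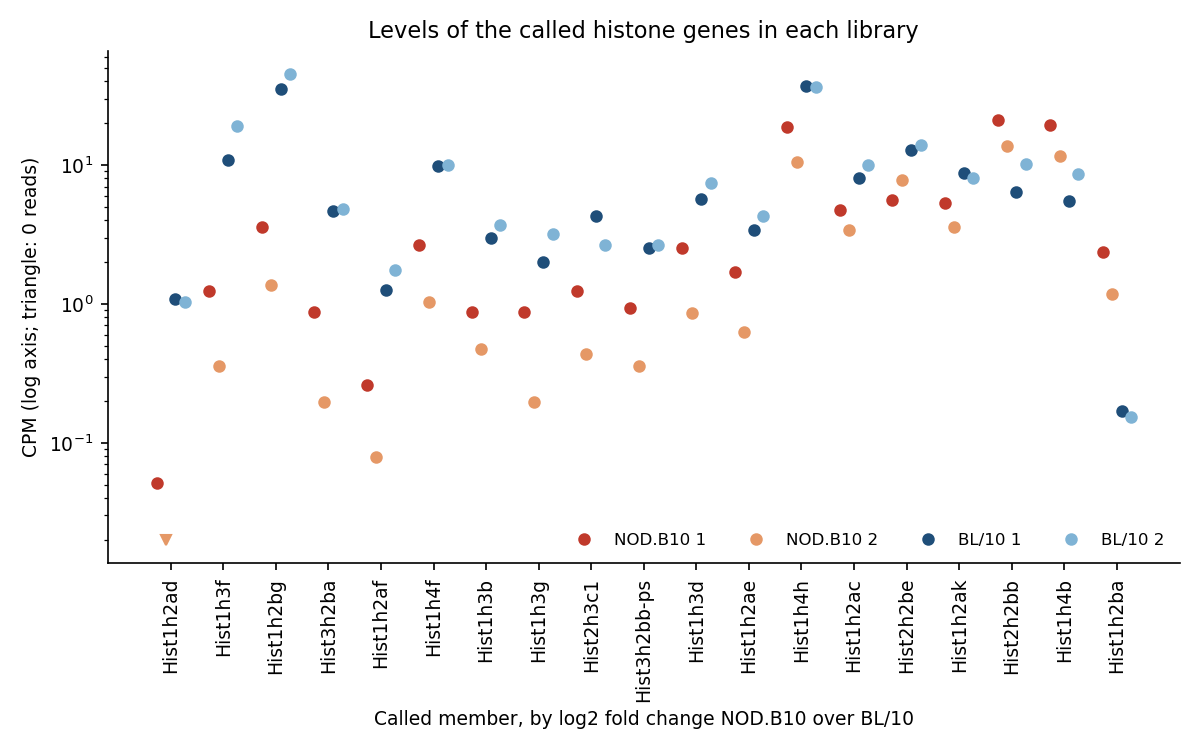
Level in CPM (vertical log axis) of the 19 called histone genes (horizontal axis, ordered by log2 fold change) in NOD.B10 libraries 1 and 2 and BL/10 libraries 1 and 2, one point per library; a triangle stands for 0 reads. In the 16 genes on the left both NOD.B10 points lie below both BL/10 points, and in Hist2h2bb, Hist1h4b and Hist1h2ba on the right they lie above.

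Of 16 tested H2B genes, 4 were lower and 2 higher, and H2B sums averaged 64.1 ± 29.3 CPM in NOD.B10 and 133 ± 15.3 CPM in BL/10 (SD, n = 2 each). Hist1h2bg, a core H2B gene on chromosome 13, had 3.57 and 1.38 CPM in the NOD.B10 libraries, against 35.0 and 45.2 CPM in the BL/10 libraries. The groups stood far apart, in reads as well: 69 and 35 in the NOD.B10 libraries, against 1028 and 1182 in the BL/10 libraries. The log2 fold change stood at −4.07 (SE 0.424, adjusted p = 0.00216), and it ranged from −4.88 without NOD.B10 library 1 to −3.49 without NOD.B10 library 2. Hist1h2bg alone held 0.285% and 0.248% of member reads in the NOD.B10 libraries, against 3.28% and 3.57% in the BL/10 libraries, so relative to the other histone genes it was low in both NOD.B10 libraries alike. Of the 50-base windows of its coding sequence, 14.8% occur in no other gene, so reads placed among its near-identical copies carry an uncertain count.

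Hist3h2ba, an H2B gene of the small cluster on chromosome 11, had 0.880 and 0.197 CPM in the NOD.B10 libraries, against 4.70 and 4.82 CPM in the BL/10 libraries. Both NOD.B10 libraries were low, with 17 and 5 reads, and the log2 fold change was −3.21 (SE 0.571, adjusted p = 0.00227). Without NOD.B10 library 1 its log2 fold change was −4.58, and without NOD.B10 library 2 it was −2.43. Hist2h2be, one of the histone genes known to give polyadenylated RNA in differentiated cells, had 5.59 and 7.84 CPM in the NOD.B10 libraries, against 12.9 and 13.9 CPM in the BL/10 libraries. It was 1 of the 2 tested members that were not lower in NOD.B10 library 2 than in library 1. It changed by −1.002 on the log2 scale (SE 0.238, adjusted p = 0.0117), and all 50-base windows of its coding sequence are its own. Hist3h2bb-ps, an H2B pseudogene beside Hist3h2ba, had 0.931 and 0.355 CPM in the NOD.B10 libraries, against 2.52 and 2.64 CPM in the BL/10 libraries. The groups did not overlap and the adjusted p was 0.0271, but the call was lost without NOD.B10 library 2 (adjusted p = 0.0817), BL/10 library 1 (0.0920) or BL/10 library 2 (0.0882).

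The only members called higher were Hist1h2ba, Hist2h2bb and Hist1h4b. Hist1h2ba encodes the H2B of testis, and it had 2.38 and 1.18 CPM in the NOD.B10 libraries, against 0.170 and 0.153 CPM in the BL/10 libraries. That is 46 and 30 reads in the NOD.B10 libraries, against 5 and 4 reads in the BL/10 libraries. The groups did not overlap, the log2 fold change being 3.40 (SE 0.751, adjusted p = 0.00718), and the adjusted p was 0.0665 without NOD.B10 library 1. The other testis histone genes were near the limit of detection. Hist1h1t, the testis H1, had 0 reads in NOD.B10, which allows up to 0.0671 CPM over the group, against 10 reads in BL/10. The BL/10 level was 2.68 times that limit, with the counting error of the 10 reads left out. Hist1h2aa, the testis H2A whose start lies 306 bases from that of Hist1h2ba, had 2 reads in NOD.B10 and 1 read in BL/10.

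Hist2h2bb, an H2B gene on chromosome 3, had 21.0 and 13.8 CPM in the NOD.B10 libraries, against 6.43 and 10.2 CPM in the BL/10 libraries. NOD.B10 library 2 stood closer to the BL/10 libraries than library 1 did, and the log2 fold change was 1.06 (SE 0.282, adjusted p = 0.0282). Its adjusted p was 0.0922 without NOD.B10 library 1, 0.0714 without BL/10 library 1 and 0.0610 with a replicate block. Hist1h4b, an H4 gene on chromosome 13, had 19.4 and 11.7 CPM in the NOD.B10 libraries, against 5.52 and 8.57 CPM in the BL/10 libraries. Here too library 1 was the higher of the NOD.B10 libraries, and the log2 fold change was 1.13 (SE 0.302, adjusted p = 0.0289). Its adjusted p was 0.120 without NOD.B10 library 1, 0.0773 without BL/10 library 1 and 0.0638 with a replicate block. Relative to the member total, Hist1h4b held 1.55% and 2.11% in the NOD.B10 libraries, against 0.517% and 0.676% in the BL/10 libraries, and Hist2h2bb held 1.68% and 2.48% in the NOD.B10 libraries, against 0.603% and 0.803% in the BL/10 libraries.

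Of 12 tested H2A genes, 5 were lower and 0 higher, and H2A sums averaged 54.5 ± 22.5 CPM in NOD.B10 and 99.1 ± 6.70 CPM in BL/10 (SD, n = 2 each). Hist1h2ad had 1 and 0 reads in the NOD.B10 libraries, against 32 and 27 reads in the BL/10 libraries. The level was 47.5 times higher in BL/10 than in NOD.B10 by these reads, with a 95% interval for counting error of 8.20 to 1908, and the adjusted p was 0.00587. No 50-base window of its coding sequence is its own, so this count may rest on how the authors' counting placed reads shared by several H2A genes. Hist1h2af had 0.259 and 0.0788 CPM in the NOD.B10 libraries, against 1.26 and 1.76 CPM in the BL/10 libraries, with 5 and 2 reads in NOD.B10. Its log2 fold change was −3.20 (SE 0.790, adjusted p = 0.0134), and the adjusted p was 0.104 without BL/10 library 2.

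Hist1h2ac, another gene known to give polyadenylated RNA, had 4.71 and 3.39 CPM in the NOD.B10 libraries, against 8.001 and 9.98 CPM in the BL/10 libraries. Both NOD.B10 libraries were below both BL/10 libraries, the log2 fold change being −1.16 (SE 0.291, adjusted p = 0.0150). The call was lost without NOD.B10 library 2 (adjusted p = 0.0512) and without BL/10 library 2 (0.0810). Hist1h2ae had 1.71 and 0.631 CPM in the NOD.B10 libraries, against 3.40 and 4.32 CPM in the BL/10 libraries (adjusted p = 0.0300), and Hist1h2ak had 5.33 and 3.59 CPM in the NOD.B10 libraries, against 8.75 and 8.07 CPM in the BL/10 libraries (adjusted p = 0.0456). The groups did not overlap in either gene. Hist1h2ae lost its call without NOD.B10 library 2 (adjusted p = 0.0909) and BL/10 library 2 (0.102). Hist1h2ak lost its call without NOD.B10 library 2 (0.215), BL/10 library 1 (0.150) or BL/10 library 2 (0.0712), and in 3 further alternatives. Hist3h2a, the H2A gene with the highest mean CPM, had 22.6 and 10.4 CPM in the NOD.B10 libraries, against 44.8 and 44.6 CPM in the BL/10 libraries. Its groups did not overlap either, but its adjusted p of 0.0774 missed the threshold. Its log2 fold change was −2.13 without NOD.B10 library 1 and −0.99 without NOD.B10 library 2. It was called lower under the replicate block (adjusted p = 0.0182) and with no filter (1.20e-10). In the other alternatives that kept every library it was not called, and the adjusted p ran from 0.0523 to 0.0853.

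Of 12 tested H3 genes, 5 were lower and 0 higher, while H3 sums averaged 101 ± 53.6 CPM in NOD.B10 and 127 ± 3.09 CPM in BL/10 (SD, n = 2 each). Hist1h3f had 1.24 and 0.355 CPM in the NOD.B10 libraries, against 10.9 and 19.0 CPM in the BL/10 libraries. The groups were far apart, with 24 and 9 reads in the NOD.B10 libraries, against 320 and 496 reads in the BL/10 libraries. The log2 fold change was −4.30 (SE 0.550, adjusted p = 0.00222), and it was −5.40 without NOD.B10 library 1 and −3.59 without NOD.B10 library 2. Hist1h3b had 0.880 and 0.473 CPM in the NOD.B10 libraries, against 2.996 and 3.71 CPM in the BL/10 libraries, so a log2 change of −2.33 (SE 0.509, adjusted p = 0.00703). Hist1h3d had 2.54 and 0.867 CPM in the NOD.B10 libraries, against 5.69 and 7.38 CPM in the BL/10 libraries, so a log2 change of −1.98 (SE 0.461, adjusted p = 0.0135). In both genes the NOD.B10 libraries lay wholly below the BL/10 libraries. Only 5.2% of the coding windows of Hist1h3b and 18.2% of those of Hist1h3d occur in no other gene.

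Hist2h3c1 and Hist1h3g were the remaining H3 genes called lower. Hist2h3c1 had 1.24 and 0.433 CPM in the NOD.B10 libraries, against 4.29 and 2.64 CPM in the BL/10 libraries (log2 fold change −2.08, adjusted p = 0.0212), and its call was lost without BL/10 library 1 (0.172). Hist1h3g had 0.880 and 0.197 CPM in the NOD.B10 libraries, against 2.01 and 3.17 CPM in the BL/10 libraries (log2 fold change −2.32, adjusted p = 0.0318). NOD.B10 library 2 was the lowest of the 4 in both genes, and the groups did not overlap. No coding window of Hist2h3c1 is its own, so its count may rest on how reads shared by several H3 genes were placed. Without BL/10 library 2 the adjusted p of Hist1h3g was 0.170, and without NOD.B10 library 2 it was 0.0636. The H3 gene with the most reads was not called: Hist1h3e had 74.7 and 37.9 CPM in the NOD.B10 libraries, against 55.5 and 47.4 CPM in the BL/10 libraries (log2 fold change 0.12, adjusted p = 0.899), so that the NOD.B10 libraries lay on either side of the BL/10 libraries.

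Of 12 tested H4 genes, 2 were lower and 1 higher, with H4 sums of 217 ± 115 CPM in NOD.B10 and 213 ± 8.72 CPM in BL/10 (SD, n = 2 each). Hist1h4f had 2.64 and 1.02 CPM in the NOD.B10 libraries, against 9.77 and 9.94 CPM in the BL/10 libraries. It had the smallest adjusted p of the members, 0.00131, its log2 change being −2.46 (SE 0.395), and its groups did not overlap. Leaving out NOD.B10 library 1 gave −3.28 and leaving out NOD.B10 library 2 gave −1.90. Hist1h4h had 18.9 and 10.6 CPM in the NOD.B10 libraries, against 37.2 and 36.6 CPM in the BL/10 libraries, so a log2 change of −1.34 (SE 0.249, adjusted p = 0.00684). The BL/10 libraries were nearly alike and both NOD.B10 libraries were lower, but the adjusted p was 0.0554 without BL/10 library 1.

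Among H4 genes with many reads, Hist1h4c, Hist4h4, Hist1h4d and Hist2h4 were not called. Hist1h4c had 61.2 and 24.7 CPM in the NOD.B10 libraries, against 24.5 and 26.5 CPM in the BL/10 libraries (log2 fold change 0.74, adjusted p = 0.536). Hist4h4, the only member on chromosome 6, had 42.9 and 18.5 CPM in the NOD.B10 libraries, against 18.6 and 11.2 CPM in the BL/10 libraries (log2 fold change 1.03, adjusted p = 0.397). In both genes NOD.B10 library 1 was high and library 2 lay within the range of the BL/10 libraries. Without NOD.B10 library 2 the log2 fold change was 1.26 in Hist1h4c and 1.53 in Hist4h4. Without NOD.B10 library 1 it was −0.07 in Hist1h4c and 0.29 in Hist4h4. Hist4h4 was called higher under the replicate block (log2 fold change 0.97, adjusted p = 0.00400). Hist1h4d had 68.4 and 37.2 CPM in the NOD.B10 libraries, against 30.6 and 57.9 CPM in the BL/10 libraries, and the groups overlapped (adjusted p = 0.866). Hist2h4 had 35.9 and 8.39 CPM in the NOD.B10 libraries, against 39.5 and 26.8 CPM in the BL/10 libraries (adjusted p = 0.799).

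None of the 5 tested H1 genes was called by edgeR or by DESeq2, while edgeR called 15.2% of all tested genes, and 1 of the 5 had an unadjusted p under 0.05. H1 sums averaged 468 ± 272 CPM in NOD.B10 and 594 ± 108 CPM in BL/10 (SD, n = 2 each), and the median log2 fold change was −1.17. Hist1h1c, the member with the most reads, had 301 and 125 CPM in the NOD.B10 libraries, against 220 and 305 CPM in the BL/10 libraries (log2 fold change −0.31, SE 0.633, adjusted p = 0.845). Hist1h1e had 254 and 109 CPM in the NOD.B10 libraries, against 136 and 176 CPM in the BL/10 libraries (log2 fold change 0.21, adjusted p = 0.891). For both genes the NOD.B10 libraries spanned most or all of the range of the BL/10 libraries. The sign in Hist1h1e turned on the library: its log2 fold change was −0.54 without NOD.B10 library 1 and 0.70 without NOD.B10 library 2. Hist1h1d had 77.6 and 30.0 CPM in the NOD.B10 libraries, against 112 and 128 CPM in the BL/10 libraries (log2 fold change −1.17, adjusted p = 0.434). Hist1h1d lay below both BL/10 libraries in each NOD.B10 library, as did Hist1h1a and Hist1h1b. Its log2 fold change was −2.02 without NOD.B10 library 1 and −0.63 without NOD.B10 library 2.

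Per kilobase of the gene length in the deposited table, the order of levels in NOD.B10 began with Hist1h4d at 169 CPM per kb, Hist1h4c at 138, Hist1h3e at 137 and Hist1h1c at 136 CPM per kb. In BL/10 the same 4 genes were at 142, 81.8, 125 and 168 CPM per kb. Hist1h2bg stood at 4.02 CPM per kb in NOD.B10 and 65.2 CPM per kb in BL/10, where it was close to Hist1h4h at 77.1 CPM per kb. These lengths are coding lengths for 29 members and hold untranslated sequence for 38, so levels per kb are not on an equal footing. Of the coding-length models 27 were tested, with 6 lower and 2 higher; of the longer models 29 were tested, with 9 lower and 1 higher.

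The split between the NOD.B10 libraries ran through nearly all members. Of 57 tested members, 55 had a lower CPM in NOD.B10 library 2 than in library 1, with a median ratio of library 1 to library 2 of 2.48, against 0.991 over all tested genes. The ratio was above 1.5 in 53 members (93.0%), and in 10.2% of all tested genes. Between BL/10 libraries 1 and 2 the median ratio was 0.873 over the members and 1.02 over all tested genes. Set against the BL/10 range, NOD.B10 library 1 lay above it in 20 members and below it in 28, while library 2 lay above it in 4 and below it in 50. Over all tested genes, library 1 was above the BL/10 range in 38.3% and below it in 39.6%, and library 2 was above it in 39.9% and below it in 34.9%, so that the members' 35.1% above in library 1 was near the background. In 13 members (22.8%) library 1 was above and library 2 below both BL/10 libraries, an arrangement found in 4.04% of all tested genes. The order of the members was nonetheless alike: across the 57 members, log2 CPM correlated with r = 0.958 between the NOD.B10 libraries and r = 0.981 between the BL/10 libraries, a description across genes that share a library.

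**Figure D3:**
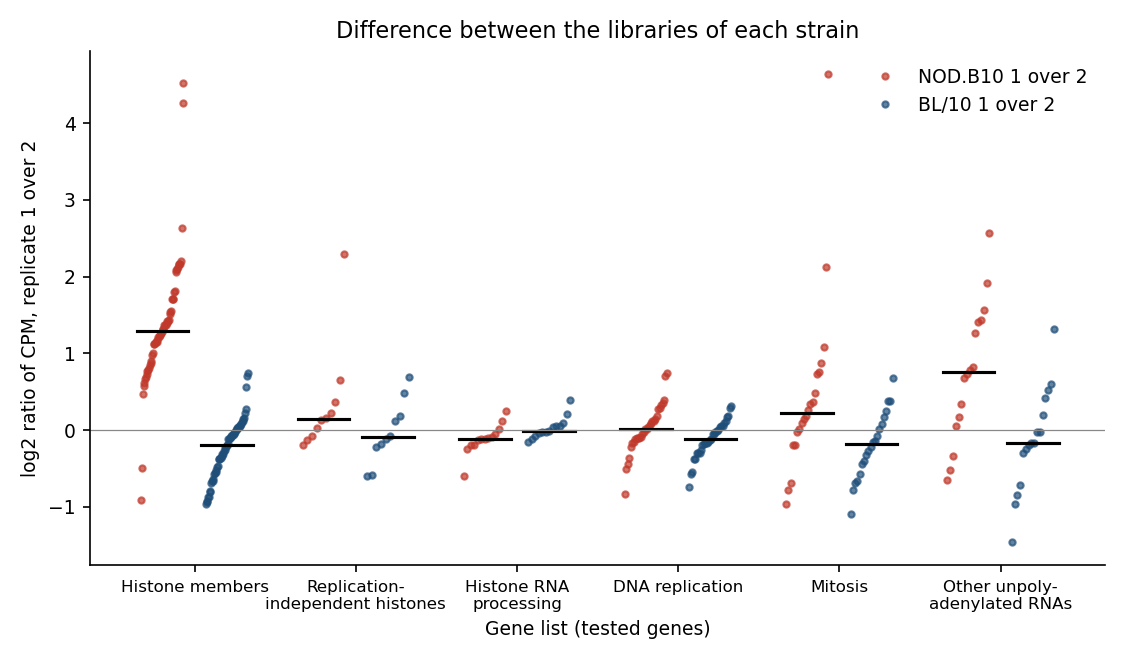
Log2 ratio of CPM in replicate 1 over replicate 2 (vertical axis) for NOD.B10 and for BL/10 (paired columns of points), in the histone members and 5 other gene lists (horizontal axis). Each point is a tested gene with reads in both libraries of the strain, so Hist1h2ad is not drawn for NOD.B10. Horizontal bars are medians of the points drawn and the line at 0 marks equal levels. Over all tested genes of a list, drawn or not, the NOD.B10 median ratio was 2.48 in the histone members. It was 1.69 in other RNAs that mostly lack a poly(A) tail, and between 0.926 and 1.17 in the other lists.

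Among the 5 other lists plotted, other RNAs that mostly lack a poly(A) tail had the highest median ratio between the NOD.B10 libraries. Of 16 such genes, 13 were lower in NOD.B10 library 2 than in library 1, with a median ratio of 1.69. Rpph1, the RNA of ribonuclease P, had 1451 and 490 CPM in the NOD.B10 libraries, against 2761 and 2409 CPM in the BL/10 libraries. Terc, the RNA of telomerase, had 9.62 and 4.02 CPM in the NOD.B10 libraries, against 9.77 and 7.34 CPM in the BL/10 libraries. In both, NOD.B10 library 2 was the lowest of the 4. Rn45s, the ribosomal RNA precursor, went the other way within NOD.B10: it had 11785 and 16896 CPM in the NOD.B10 libraries, against 21076 and 40998 CPM in the BL/10 libraries. None of these 16 genes was called between the strains by edgeR or by DESeq2, and 2 had an unadjusted p under 0.05 in edgeR. The labels give total RNA as the molecule and a standard Illumina preparation, and whether poly(A) RNA was selected or ribosomal RNA removed is not given in the sources used here. That 57 members and the RNAs above had reads in all 4 libraries is what the table shows of library type, and the part of RNA selection in the split was not tested.

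Replication-independent histone genes had a smaller ratio, while members known to give polyadenylated RNA were divided. The median ratio of NOD.B10 library 1 to library 2 was 1.11 over 10 replication-independent histone genes, whose mRNAs carry a poly(A) tail, and their sums were 968 and 889 CPM in the NOD.B10 libraries, against 1105 and 1131 CPM in the BL/10 libraries. Of these 10 genes 2 were lower and 0 higher, where 8.63% of all tested genes were lower and 6.55% higher. The 2 were H2afz, the H2A.Z variant, with a log2 fold change of −0.59 (adjusted p = 0.0160), and H3f3a, which encodes H3.3, with −0.37 (adjusted p = 0.0255). Among members, the 18 with more than 300 annotated bases after the stem-loop had a median ratio of 2.36, and the 21 tested members with 300 or fewer had 3.28. The first set had 4 lower and 0 higher, with a median log2 fold change of −0.58, and the second had 8 lower and 1 higher, with a median of −1.47. The 5 members known to give polyadenylated RNA had a median ratio of 2.32, close to the 2.48 of all tested members, but they were spread widely. Their ratios were 0.712 in Hist2h2be, 1.39 in Hist1h2ac, 2.32 in Hist4h4, 2.40 in Hist1h1c and 3.49 in Hist1h2bc. Of these 5, Hist2h2be and Hist1h2ac were lower, as given above, and Hist1h1c, Hist1h2bc and Hist4h4 were not called. Hist1h2bc had 8.12 and 2.33 CPM in the NOD.B10 libraries, against 8.99 and 11.6 CPM in the BL/10 libraries (adjusted p = 0.376).

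Few of the genes that act on histone RNA and histone proteins were called, where 15.2% of all tested genes were called. In lists this short, that share would also give few calls. Of 13 tested genes of histone transcription and 3′-end processing, edgeR and DESeq2 called 0 in either direction, 2 had an unadjusted p under 0.05 in edgeR, the median log2 fold change was −0.0031, and the median ratio between the NOD.B10 libraries was 0.926. Slbp had 40.7 and 37.4 CPM in the NOD.B10 libraries, against 39.7 and 44.4 CPM in the BL/10 libraries (adjusted p = 0.666). Lsm11, a protein of the U7 particle that cuts histone pre-mRNA, had the smallest adjusted p of this list, 0.114, with 14.2 and 16.2 CPM in the NOD.B10 libraries, against 19.9 and 21.6 CPM in the BL/10 libraries. Of 16 histone chaperone genes, 1 was lower and 0 higher: Daxx, a chaperone of H3.3, had 56.8 and 64.7 CPM in the NOD.B10 libraries, against 78.6 and 85.5 CPM in the BL/10 libraries (adjusted p = 0.0280).

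Mitosis genes were mostly lower in the same NOD.B10 libraries, and fewer of the replication genes were. Over all tested genes, 8.63% were lower and 6.55% higher. Of 20 mitosis genes, 16 were lower and 0 higher, and their sums were 71.1 and 58.9 CPM in the NOD.B10 libraries, against 174 and 211 CPM in the BL/10 libraries. Top2a, the topoisomerase of dividing cells, had 12.6 and 11.8 CPM in the NOD.B10 libraries, against 33.8 and 44.7 CPM in the BL/10 libraries (log2 fold change −1.70, adjusted p = 2.77e-05). The NOD.B10 libraries were nearly alike in Top2a, but 14 of the 20 mitosis genes were lower in library 2 than in library 1, with a median ratio of 1.17. Of 30 genes of S-phase entry and DNA replication, 7 were lower and 1 higher, with sums of 781 and 780 CPM in the NOD.B10 libraries, against 884 and 922 CPM in the BL/10 libraries. Rrm2, the regulated subunit of ribonucleotide reductase, had 4.14 and 2.48 CPM in the NOD.B10 libraries, against 12.9 and 14.9 CPM in the BL/10 libraries (log2 fold change −2.09, adjusted p = 2.17e-04). Pcna, the replication clamp, was lower as well (log2 fold change −0.79, adjusted p = 5.95e-04), and Tk1, the thymidine kinase of S phase, was higher (log2 fold change 0.91, adjusted p = 0.00766).

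Markers of some other cell types moved with the strain, where 8.63% of all tested genes were lower and 6.55% higher. All 19 T cell markers tested were lower, Trat1 with 0 reads in both NOD.B10 libraries, with sums of 62.5 and 63.0 CPM in the NOD.B10 libraries, against 577 and 665 CPM in the BL/10 libraries. Of 8 myeloid markers tested 5 were lower and 0 higher, S100a8 with 0 reads in both NOD.B10 libraries, with sums of 48.9 and 37.4 CPM in the NOD.B10 libraries, against 126 and 133 CPM in the BL/10 libraries. Of 6 plasma cell markers 2 were lower and 0 higher, with sums of 679.6 and 615 CPM in the NOD.B10 libraries, against 709 and 552 CPM in the BL/10 libraries. Of 7 germinal centre markers edgeR called 0, DESeq2 called 0 and 1 had an unadjusted p under 0.05 in edgeR, with sums of 217 and 206 CPM in the NOD.B10 libraries, against 145 and 185 CPM in the BL/10 libraries. Of 10 markers of B cells, the labelled cell type, 1 was higher and 0 lower. Their sums were 10314 and 11025 CPM in the NOD.B10 libraries, against 9451 and 9430 CPM in the BL/10 libraries. The part of these cells and of dividing cells in the lower histone genes was not tested. Between the NOD.B10 libraries the T cell sums differed by less than 1 CPM, although 13 of the 19 markers were lower in library 2 than in library 1. The summed histone level was 2.25 times higher in library 1 than in library 2.

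Histone genes lie in clusters, and the members fell into 7 position groups on chromosomes 3, 6, 11 and 13 (GRCm38, the assembly of mm10) when those over 100000 bases apart were separated. The largest, with 29 members between positions 23531050 and 23764406 of chromosome 13, had 28 members tested, of which 11 were lower and 1 higher, with a median log2 fold change of −1.17. The 12 tested members between positions 21715763 and 21837530 of the same chromosome included 1 lower and 0 higher, with a median of −0.51. On chromosome 3, between positions 96219865 and 96270132, 2 of 8 tested members were lower and 1 was higher. On chromosome 11, between positions 58948920 and 58956830, all 3 members had negative fold changes and 2 were lower. Over all tested genes 8.63% were lower and 6.55% higher, so the 1 lower member of 12 was near that background. The difference between the position groups was not tested. In the annotation Hist1h2be overlaps Hist1h1e, and Hist3h2a overlaps Trim17, each on the same strand, so their counts carry that uncertainty.

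**Figure D4:**
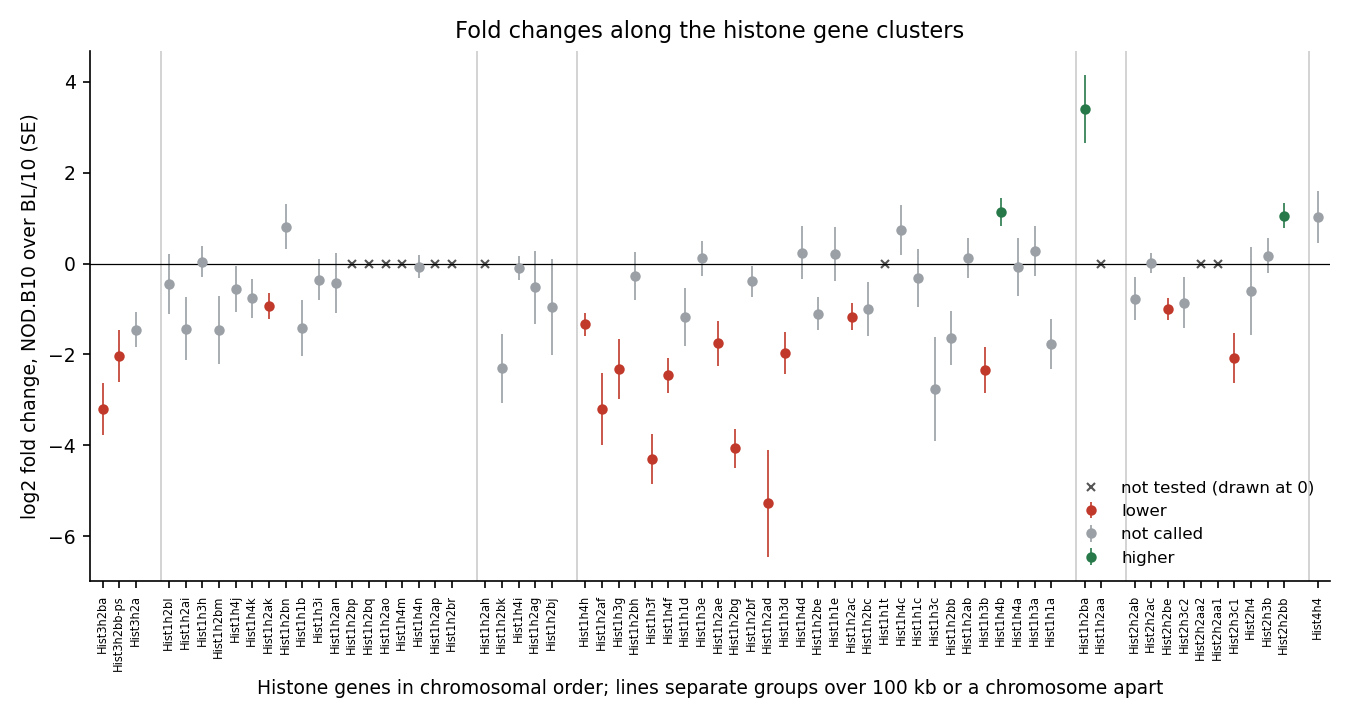
Log2 fold change of NOD.B10 over BL/10 (vertical axis, bars show the SE) for all 68 histone genes in chromosomal order (horizontal axis), coloured by call, with vertical lines between position groups; members without a test are crosses drawn at 0. The fourth group holds 11 of the 16 lower members among 28 tested, and neighbours within it range from −5.28 for Hist1h2ad to 1.13 for Hist1h4b.

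Neighbours that start close to each other often differed in their calls. Members of the H2A and H2B classes often stand head to head, and 13 such pairs had starts within 500 bases of each other. In 8 pairs both genes were tested: in 1 both were lower, in 5 the one was lower and the other not called, and in 2 neither was called, while 6 pairs had fold changes of the same sign. The pair with both lower was Hist1h2ae and Hist1h2bg, 176 bases apart, with log2 fold changes of −1.76 and −4.07. Hist1h2bf and Hist1h2ad, 185 bases apart, had 4.22 and 0.0259 mean CPM in NOD.B10, against 5.48 and 1.06 mean CPM in BL/10. Hist2h2ac and Hist2h2be, 239 bases apart, had log2 fold changes of 0.01 and −1.002, and Hist1h2ak and Hist1h2bn, 296 bases apart, had −0.93 and 0.81. A gene past the threshold beside a partner that missed it is not shown to differ from it, and the difference within pairs was not tested.

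Promoters were read from RefSeq (GRCm38.p6), from 250 bases before to 50 bases after each start, and 61 members had one. Both strands were searched for the octamer ATTTGCAT, the binding sequence of Oct-1 in H2B promoters, for CCAAT and for TATAAA, and overlaps between motifs were allowed. The octamer was present in 7 of 17 H2A and 6 of 16 H2B promoters and in 0 of the H1, H3 and H4 promoters, which is 21.3% of members against 1.70% of 26964 promoters of all genes. The windows of head-to-head H2A and H2B genes overlap, so the same octamer can be counted for both genes of a pair. This was so for Hist1h2ae and Hist1h2bg, Hist1h2aa and Hist1h2ba, and Hist1h2ah and Hist1h2bk. Promoters and members with the octamer are therefore not all separate sites. CCAAT was present in 85.2% of members and 37.8% of all promoters, and TATAAA in 57.4% of members and 14.1% of all promoters. The promoters of Hist1h2bg, the lower H2B gene with the most reads in BL/10, and of Hist2h2bb, a higher one, are shown since both are H2B genes with the octamer and they moved in opposite directions. Motifs on either strand are in capitals, and ATTGG is CCAAT on the other strand.
Hist1h2bg, chr13:23571150-23571449, plus strand: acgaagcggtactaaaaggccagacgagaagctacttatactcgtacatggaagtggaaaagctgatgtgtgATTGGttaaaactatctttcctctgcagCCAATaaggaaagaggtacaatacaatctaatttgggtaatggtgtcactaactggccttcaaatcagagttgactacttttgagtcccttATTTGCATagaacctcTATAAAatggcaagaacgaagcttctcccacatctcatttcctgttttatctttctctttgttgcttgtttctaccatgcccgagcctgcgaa
Hist2h2bb, chr3:96269450-96269749, plus strand: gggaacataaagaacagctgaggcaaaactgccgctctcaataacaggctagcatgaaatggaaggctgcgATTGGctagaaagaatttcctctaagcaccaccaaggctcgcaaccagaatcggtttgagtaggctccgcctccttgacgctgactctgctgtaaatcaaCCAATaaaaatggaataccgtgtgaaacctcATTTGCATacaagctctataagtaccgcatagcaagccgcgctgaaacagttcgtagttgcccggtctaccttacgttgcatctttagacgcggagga
Both hold the octamer once and CCAAT on both strands, and Hist1h2bg also holds TATAAA. Of 11 tested members with the octamer, 3 were lower and 2 higher, and of 40 tested members without it, 10 were lower and 1 higher. A match describes the letters in the window and does not show binding.

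The stem-loop forms were likewise spread over the calls. Of 21 tested members with the most frequent form, 8 were lower and 0 higher, including Hist1h2bg, Hist3h2ba and Hist1h2ad. Of 6 tested members with the form of H4 genes, 2 were lower, Hist1h4f and Hist1h4h. Of 5 with the altered loop, 1 was lower, Hist1h3f. Of the 2 members with the form of Hist1h4b and Hist1h4j, Hist1h4b was higher, and Hist1h4j, with a log2 fold change of −0.57, was not called. Hist1h3g, the 1 member with its form, was lower. Of the 18 tested members with no match, 4 were lower and 2 higher.

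The 11 members that were not tested had few or no reads. In 6 members, Hist1h2bq, Hist1h2br, Hist1h2ao, Hist1h2ap, Hist1h4m and Hist2h2aa1, no read was counted in any library, which allows up to 0.0671 CPM in NOD.B10 and 0.0540 CPM in BL/10 for counting error. None of these 6 has a 50-base coding window of its own, and how reads shared between genes were counted is not given in the sources used here. In all, 12 members had no such window, and the other 6 had reads. The remaining untested members with reads were Hist1h1t and Hist1h2aa, given above, Hist1h2ah, Hist1h2bp and Hist2h2aa2. Hist1h2ah had 3 and 1 reads in the NOD.B10 libraries, against 11 and 19 reads in the BL/10 libraries, and the groups did not overlap. Hist1h2bp had 1 read in NOD.B10 and 10 in BL/10, a ratio of BL/10 to NOD.B10 of 8.05 with a 95% counting interval of 1.15 to 349. Of the 21 tested members with under 20% of windows of their own, 7 were lower and 0 higher, and of the 36 with 20% or more, 9 were lower and 3 higher.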

How the data were processed

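RNA was sequenced from 2 NOD.B10 and 2 BL/10 libraries of B cells. The authors deposited raw read counts per gene symbol with no normalisation, together with a gene length in bases. Per the submitters' processing notes, HISAT2 2.1.0, SAMtools 1.3, Subread 1.6.5 and featureCounts were used, with build mm10. Which annotation and strand setting were used, and whether reads that align to several places were counted, is not given in the sources used here. Histone genes have near-identical copies and neighbours, so their counts depend on those settings. Total counts were 19328803 and 25375678 reads in NOD.B10 libraries 1 and 2, and 29372751 and 26150794 reads in BL/10 libraries 1 and 2. CPM here is the count per 1000000 reads of that total.

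All genes entered 1 fit, tested by edgeR 4.0.16 quasi-likelihood in R 4.3.3 (robust dispersion, TMM, two-sided, no covariates). The filterByExpr filter asked for counts of at least 10 and totals of at least 15. The Benjamini-Hochberg adjustment ran over 13075 genes, and called means an adjusted p under 0.05. Each SE is the unshrunken log2 fold change divided by the root of its F statistic, without sign, and it can lie below counting error at few reads. Exact counting intervals are at 95%, a count of 0 is given a limit of 3 reads over the group, and both cover counting error only. The fit was tested on simulated counts. Gene positions, coding windows and stem-loops came from GENCODE for GRCm38, and 67 members matched RefSeq through their synonyms.

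Alternatives were other scalings, other filters, DESeq2 1.42.0, a replicate block and leaving out each library. The members and the gene lists were chosen with earlier results of these data known. Named members were each called member, the 10 with the highest mean CPM, and the testis and polyadenylated lists; from other lists up to 3 called genes were eligible. One list of markers of another cell type is not reported here. The genes Terc, Rpph1 and Rn45s, the other members named, and the 2 promoters were chosen after their values were seen.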

Additional observations from a re-analysis of the deposited data

How the results depend on the processing

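The main counts were 16 members lower and 3 higher. With RLE size factors, library totals alone, or totals without Rn45s and the members, the counts were again 16 and 3, and 16 and 3 of the called members remained called. Without a filter there were 24 lower and 3 higher (8.61% and 6.54% of all tested genes), with at least 50 reads in 2 libraries 13 and 2 (8.08% and 6.88%), with DESeq2 16 and 3 (7.74% and 5.63%), and with the replicate block 16 and 2 (7.97% and 5.81%). Of the main calls, 15 lower and 3 higher were kept by DESeq2, and 14 lower and 1 higher under the block. The labels do not say what libraries with the same replicate number share. Deviations of same-numbered libraries correlated at −0.0165 over 13075 genes, which does not settle it. The fits that leave out 1 library gave between 10 and 36 lower and between 0 and 10 higher; where a strain is left with 1 library, it is assumed to vary like the other strain. Among the 30 named members tested, directions reversed in 7 cases, none of a called member; other members were not followed here. Over the fits with 1 library left out, log2 fold changes ran from −0.54 to 0.70 in Hist1h1e, −0.46 to 0.54 in Hist1h3e, −0.28 to 0.78 in Hist1h4d, −0.0717 to 1.26 in Hist1h4c, −1.09 to 0.19 in Hist1h1c and −2.00 to 0.11 in Hist2h4. The first 4 were negative without NOD.B10 library 1, Hist1h1c and Hist2h4 were positive without NOD.B10 library 2, and Hist1h4d was also negative without BL/10 library 1 (−0.16). The cause was not tested. The difference in summed level was −269 CPM on TMM-scaled sizes, −289 CPM without Rn45s in the totals and −213 CPM without Hist1h1c, and from −611 to 85.9 CPM when a library was left out. The median log2 fold change over members was −1.72 without NOD.B10 library 1 and −0.32 without NOD.B10 library 2.

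In members whose NOD.B10 libraries differ by more than the strains do, such as Hist1h1c and Hist1h1e, a strain difference was not detectable with 2 libraries a strain. Members with under 10 reads in a strain are limited by counting error.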
